A study of Homo sapiens with 9 samples.

Results

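A set of 10 genes of mitosis was followed in WI-38 fibroblasts made senescent with doxorubicin. They were UBE2C, CDC20, PLK1, CCNB1, CCNB2, AURKA, AURKB, BIRC5, TPX2 and ANLN, taken by gene symbol from the deposited table of doxorubicin against control. All 10 have a row among the 6499 genes of that table. They were chosen by name with their lower TPM values after doxorubicin in these same libraries known, so their levels are given as a description and without a test. The WI-38 line was derived from human lung and consists of diploid fibroblasts, used here at population doubling 30. Doxorubicin, an anthracycline, traps topoisomerase II on DNA and so causes breaks. Both groups came from WI-38 cultures. The 3 control libraries (C1 to C3) are from cells given DMSO, the solvent, in place of doxorubicin, followed by DMSO-containing medium for 48 h. The 3 doxorubicin libraries (M1 to M3) are from cells given 1 μM doxorubicin for 12 h, followed by the same medium for 48 h. The methods of the study speak of independent experiments in general, and the labels do not tie these libraries to separate cultures, so p-values measure the spread between the libraries, which may be technical. Libraries with oridonin were not analysed here.

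Entry into mitosis is driven by cyclin B bound to CDK1, with help from the kinases PLK1 and Aurora A. Exit from mitosis needs the anaphase-promoting complex (APC/C), a ubiquitin ligase that takes its ubiquitin from UBE2C and is switched on by CDC20. The APC/C marks cyclin B and then many other mitotic proteins for destruction, among them PLK1, both Aurora kinases, TPX2, anillin and CDC20 itself. The genes of these proteins are transcribed mostly late in the cell cycle, and their mRNA is scarce in cells that do not divide. Lung fibroblasts that have become senescent no longer divide.

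The values are read here as TPM, a measure of transcript abundance in which reads are divided by the length of the gene and every library is brought to the same sum over all genes. The table does not name its unit, and TPM is an inference. The listed genes held 54.3 to 54.8% of that sum in the control libraries and 58.6 to 60.0% in the doxorubicin libraries. Read depth is not kept by TPM and is unknown. Each listed gene had passed a fold change of 1.2 and a p-value of 0.05 in the authors' own comparison, so the table holds no gene that failed them. Where a gene is said to be called lower or higher, limma on log2(TPM + 1) gave a fold change over 1.2 and a Benjamini-Hochberg adjusted p under 0.05 across the 5721 genes whose mean reached 1 TPM. All 10 chosen genes reached that mean, 4 of them (UBE2C, CDC20, PLK1 and BIRC5) with a doxorubicin mean under 1 TPM and hence through the control libraries.

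After doxorubicin, 9 of the 10 genes were left with 0.983 to 9.98% of their mean control level, while AURKA was left with 60.7%. The median over the 10 genes was 4.40%, against 79.6% over all genes tested. No control library overlapped a doxorubicin library in any of the 10 genes. Over all genes tested, 48.4% were lower without overlap in the same way. A mean under 10% of control was found for 79 genes, or 1.38% of those tested, 9 of them chosen genes, and one under 5% for 58 genes, or 1.01%, 7 of them chosen genes. These counts follow from the choice of the genes and are given as a description. In bulk RNA, fewer dividing cells and less mRNA per dividing cell cannot be told apart.

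**Figure D1:**
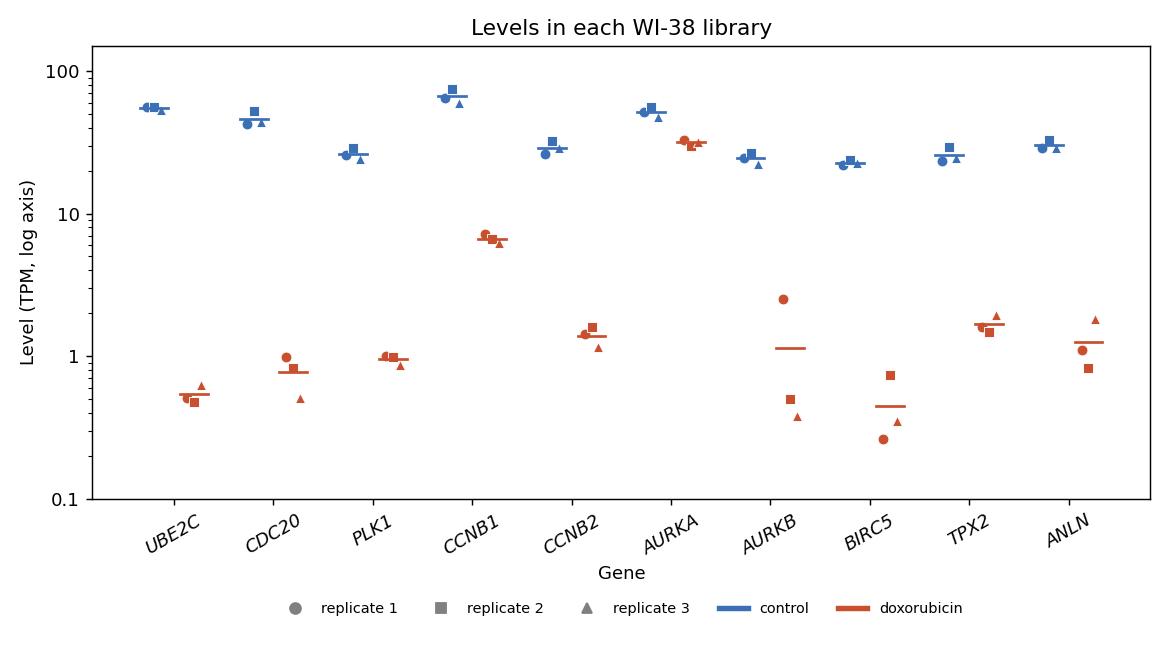
Level of each chosen gene in each library, in TPM on a log axis, with control libraries in blue, doxorubicin libraries in orange, a marker shape per replicate and a bar at each group mean. AURKA stays near 30 TPM after doxorubicin and CCNB1 near 7 TPM, while the other 8 genes have means under 2 TPM.

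Cyclin B1 and cyclin B2 are the partners of CDK1 at mitotic entry. CCNB1 (ENSG00000134057, chromosome 5, 69167010 to 69178245) was at 65.18, 74.97 and 59.93 TPM in the control libraries and at 7.19, 6.58 and 6.20 TPM in the doxorubicin libraries. It had the highest control level of the 10 genes, and its doxorubicin libraries lay close together. The means were 66.7 ± 7.63 and 6.66 ± 0.499 TPM (SD, n = 3 each), a level 10.02-fold lower. CCNB2 (ENSG00000157456, chromosome 15, 59105078 to 59125045) was at 25.98, 32.19 and 28.77 TPM in control cells and at 1.44, 1.59 and 1.15 TPM after doxorubicin. Its means of 28.98 ± 3.11 and 1.39 ± 0.224 TPM (SD, n = 3 each) differ 20.8-fold. Of these cyclin genes, CCNB1 kept 9.98% of its control level and CCNB2 kept 4.81%.

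PLK1, the polo-like kinase of mitotic entry, spindle assembly and cytokinesis, lies on chromosome 16 (ENSG00000166851, 23677656 to 23690367). It was at 25.86, 29.03 and 24.25 TPM in the control libraries and at 1.00, 0.98 and 0.86 TPM after doxorubicin. The doxorubicin libraries lay close together, and the level was 27.9-fold lower (26.4 ± 2.43 to 0.947 ± 0.0757 TPM, SD, n = 3 each).

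Aurora A builds the spindle poles, and TPX2 binds it, activates it and brings it to spindle microtubules. AURKA (ENSG00000087586, chromosome 20, 56369389 to 56392337) was at 51.82, 56.05 and 47.92 TPM in control cells and at 32.70, 29.88 and 32.02 TPM after doxorubicin. The lowest control library was 1.47 times the highest doxorubicin library, the narrowest gap among the 10 genes. Means were 51.9 ± 4.07 and 31.5 ± 1.47 TPM (SD, n = 3 each), a 1.65-fold lower level. TPX2 (ENSG00000088325, chromosome 20, 31739271 to 31801805) was at 23.51, 29.42 and 24.45 TPM in control cells and at 1.60, 1.47 and 1.94 TPM after doxorubicin. The activator was 15.4-fold lower (25.8 ± 3.18 to 1.67 ± 0.243 TPM, SD, n = 3 each) in the same libraries in which its kinase kept 60.7%. AURKA made up 13.5 to 14.2% of the summed TPM of the 10 genes in the control libraries and 66.3 to 69.8% in the doxorubicin libraries.

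Aurora B is the kinase of the chromosomal passenger complex, which corrects wrong chromosome attachments and guides cytokinesis, and survivin, the product of BIRC5, anchors it at centromeres. AURKB (ENSG00000178999, chromosome 17, 8204733 to 8210600) was at 24.57, 26.40 and 22.38 TPM in the control libraries and at 2.53, 0.50 and 0.38 TPM in the doxorubicin libraries. The value of M1 stood well above those of M2 and M3. With all libraries AURKB kept 4.65% of its control level (24.5 ± 2.01 to 1.14 ± 1.21 TPM, SD, n = 3 each), and without M1 it kept 1.80%. BIRC5 (ENSG00000089685, chromosome 17, 78214186 to 78225636) was at 21.90, 23.73 and 22.74 TPM in control cells and at 0.26, 0.74 and 0.35 TPM after doxorubicin. Its level was 50.6-fold lower (22.8 ± 0.916 to 0.450 ± 0.255 TPM, SD, n = 3 each), and here M2, not M1, was the highest doxorubicin library. Apart from AURKB without M1, leaving out any 1 library moved no share of the control level of these 10 genes by over 1.5 times.

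UBE2C and CDC20 work with the APC/C directly. UBE2C (ENSG00000175063, chromosome 20, 45812576 to 45816957) was at 56.05, 55.52 and 53.18 TPM in control cells and at 0.51, 0.48 and 0.63 TPM after doxorubicin. It had the smallest relative spread of the 10 genes among control libraries (coefficient of variation 2.78%) and was left with the lowest share of its level, 0.983%, or 102-fold lower by the ratio of the means (54.9 ± 1.53 to 0.540 ± 0.0794 TPM, SD, n = 3 each). CDC20 (ENSG00000117399, chromosome 1, 43358955 to 43363203) was at 42.24, 52.60 and 43.66 TPM in control cells and at 0.99, 0.82 and 0.51 TPM after doxorubicin. Its level was 59.7-fold lower (46.2 ± 5.62 to 0.773 ± 0.243 TPM, SD, n = 3 each).

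Anillin ties actin, myosin and septins together in the cleavage furrow. ANLN (ENSG00000011426, chromosome 7, 36389806 to 36453791) was at 28.80, 32.61 and 29.03 TPM in control cells and at 1.10, 0.83 and 1.83 TPM after doxorubicin. M3 was the highest doxorubicin library for this gene, and the level was 24.1-fold lower (30.1 ± 2.14 to 1.25 ± 0.517 TPM, SD, n = 3 each).

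The order of the levels changed between the groups. In control cells the means ran from 66.7 TPM (CCNB1) over UBE2C, AURKA, CDC20, ANLN, CCNB2, PLK1, TPX2 and AURKB to 22.8 TPM (BIRC5), a span of 2.93-fold. Of the 9 pairs of neighbours in that order, 7 had overlapping libraries, and only CCNB1 over UBE2C and CDC20 over ANLN did not. After doxorubicin the order was AURKA, CCNB1, TPX2, CCNB2, ANLN, AURKB, PLK1, CDC20, UBE2C and BIRC5, and the span was 70.1-fold. Here AURKA stood clear of CCNB1 and CCNB1 clear of TPX2, while the 7 neighbouring pairs from TPX2 to BIRC5 had overlapping libraries. UBE2C thus went from the second highest level to the second lowest.

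**Figure D2:**
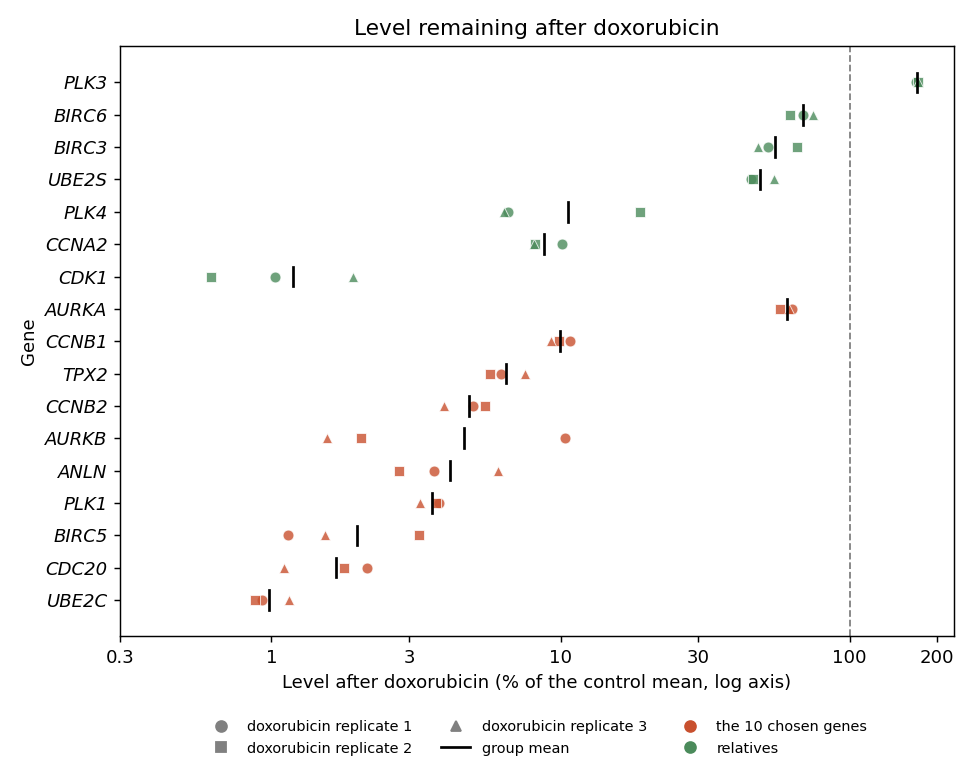
Level of each doxorubicin library as a percentage of the control mean (log axis) for the chosen genes in orange and 7 related genes in green, with a black bar at the group mean and a dashed line at 100%. UBE2C is at 0.983% and AURKA at 60.7%, and among the relatives CDK1 is at 1.19% and PLK3 at 171%.

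On the scale of the fit, log2(TPM + 1), the differences between doxorubicin and control ranged from -5.18 (standard error 0.11) for UBE2C to -0.70 (standard error 0.08) for AURKA. Their median was -3.76, and that of all genes tested was -0.28. UBE2C and CDC20 had the first and the second lowest difference of all 5721 genes tested, BIRC5 the eighth, and 9 of the 10 genes were among the lowest 100. AURKA ranked 983 from the bottom. The added count of 1 holds these differences down for genes under 1 TPM, and the log2 ratio of the means was -6.67 for UBE2C, -5.66 for BIRC5 and -0.72 for AURKA. The ranks of UBE2C and CDC20 depend on that count. With 0.1 added in its place, TROAP was at -6.60, below UBE2C at -6.43. Of the genes named here, KIF20A (-6.23), MYBL2 (-5.98), CDK1 (-5.80) and PBK (-5.77) were then also below CDC20 at -5.76. Quantile normalization, which gives all libraries the same distribution, moved the median of all genes from -0.28 to -0.01, and after it UBE2C was at -5.12 and AURKA at -0.63.

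**Figure D3:**
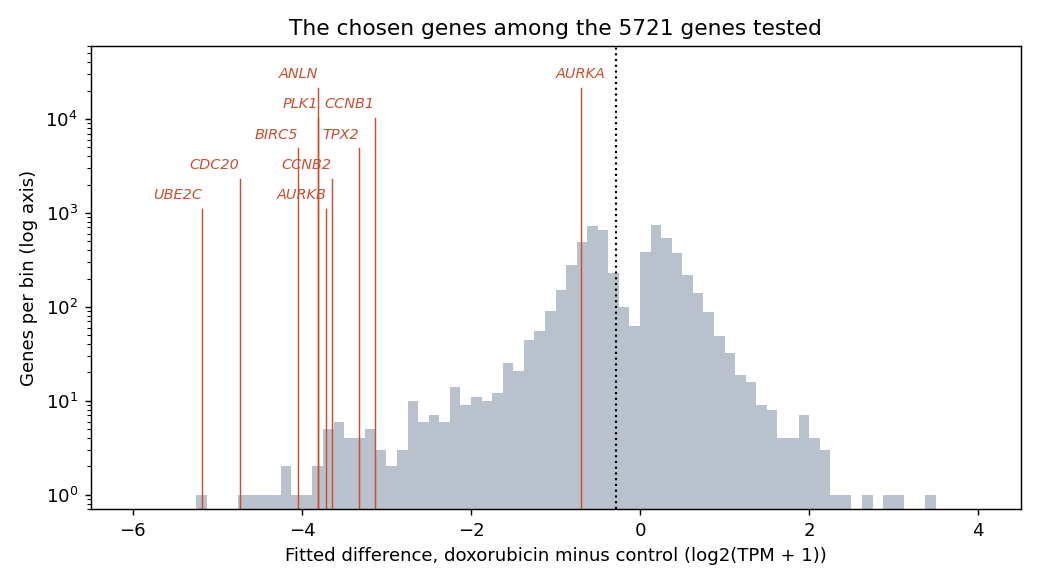
Histogram of the fitted differences on the log2(TPM + 1) scale over the genes tested (counts per bin on a log axis), with orange lines at the chosen genes and a dotted line at the median of all genes, -0.28. Of the chosen genes, 9 lie at or below -3.14 and AURKA lies at -0.70.

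Some of these genes could share reads with other places in the genome. GENCODE release 29 names 4 pseudogenes of UBE2C, 2 of AURKA and 1 each of CDC20 and CCNB2, none of them in the table. PLK1, CCNB2 and ANLN overlap other annotated genes. The longest overlap, 4012 bases of CCNB2 with AC092757.2, is on the same strand. The others are on the opposite strand and span 42 to 641 bases. How reads in such places were counted is not stated, the levels of these genes carry that doubt, and its part in the higher remaining level of AURKA was not tested.

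The promoters of late cell cycle genes often hold a pair of short elements. The cell cycle genes homology region (CHR), with the letters TTTGAA, binds the MuvB complex, which represses with the DREAM proteins and activates with B-MYB and FOXM1. The CCAAT box binds the factor NF-Y. Promoter sequences from RefSeq on GRCh38.p14, from 250 bases before to 50 after each transcript start, were found for 6 of the 10 genes (CDC20, PLK1, CCNB1, CCNB2, AURKB and ANLN), with none here for UBE2C, AURKA, BIRC5 and TPX2. TTTGAA on either strand is in 4 of the 6 (CDC20, PLK1, CCNB2 and ANLN), and the CCAAT box on either strand is in 5 of the 6, all but ANLN. Over all 35116 promoter entries, 15.2% hold TTTGAA, 34.6% hold CCAAT and 5.9% hold both. CDC20, PLK1 and CCNB2 hold both. Among the 3436 entries of genes called lower, 13.6% hold TTTGAA and 35.6% hold CCAAT. The variant TTCGAA is in none of the 6 promoters and in 1.45% of all.

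The stretch from 120 bases before to 30 bases from the start is shown 5′ to 3′ on the strand of the gene for the 5 genes with a match in it, since the order and spacing of the elements can be read there. Capitals mark TTTGAA, its reverse complement TTCAAA and CCAAT. The positions are chr1:43358861-43359010 for CDC20, chr16:23678769-23678918 for PLK1, chr5:69167030-69167179 for CCNB1, chr15:59105026-59105175 for CCNB2 and chr7:36389742-36389891 for ANLN, all on the plus strand.
CDC20: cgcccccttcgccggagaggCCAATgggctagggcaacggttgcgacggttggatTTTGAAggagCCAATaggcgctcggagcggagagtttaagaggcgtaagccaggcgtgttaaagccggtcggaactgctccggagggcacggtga
PLK1: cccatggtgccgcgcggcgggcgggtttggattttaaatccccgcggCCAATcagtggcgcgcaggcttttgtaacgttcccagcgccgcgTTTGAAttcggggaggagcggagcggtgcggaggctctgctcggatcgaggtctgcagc
CCNB1: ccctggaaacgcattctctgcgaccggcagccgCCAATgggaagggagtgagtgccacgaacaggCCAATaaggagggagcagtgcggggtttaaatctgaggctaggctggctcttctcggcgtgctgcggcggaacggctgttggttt
CCNB2: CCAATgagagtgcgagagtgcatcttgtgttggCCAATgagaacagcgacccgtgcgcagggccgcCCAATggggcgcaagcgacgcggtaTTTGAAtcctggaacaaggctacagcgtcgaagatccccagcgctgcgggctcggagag
ANLN: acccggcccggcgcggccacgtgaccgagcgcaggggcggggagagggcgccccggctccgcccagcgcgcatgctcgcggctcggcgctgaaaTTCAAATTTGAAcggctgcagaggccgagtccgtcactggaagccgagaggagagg
In PLK1 and in CCNB2, TTTGAA begins 29 bases before the start, at the same distance in both genes. In ANLN it stands as an inverted pair that begins 26 bases before the start, and in CDC20 it begins 65 bases before the start between a pair of CCAAT boxes, with a second match on the opposite strand, upstream of both boxes. The last CCAAT box begins 54 bases before the start in CCNB2 and 55 in CCNB1 and in CDC20. Neighbouring boxes are 33 bases apart in CCNB2, at the 3 matches nearest to the start, 32 apart in CCNB1 and 45 apart in CDC20. AURKB has 2 entries with different starts, and its only match is a CCAAT box on the opposite strand. It lies 153 bases before the start of the first entry and 129 before that of the second. The stretches from 120 bases before to 30 bases from these starts are at 8210196-8210345 and 8210220-8210369 on the minus strand. In GENCODE the upstream end of AURKB is at 8210600, and neither search window reaches it. PLK1 likewise begins in GENCODE at 23677656, and its search window does not reach that position. Whether TTTGAA stands nearer to these ends was not tested. No match overlaps another in these promoters. The matches describe the letters and not the binding of a factor.

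**Figure D4:**
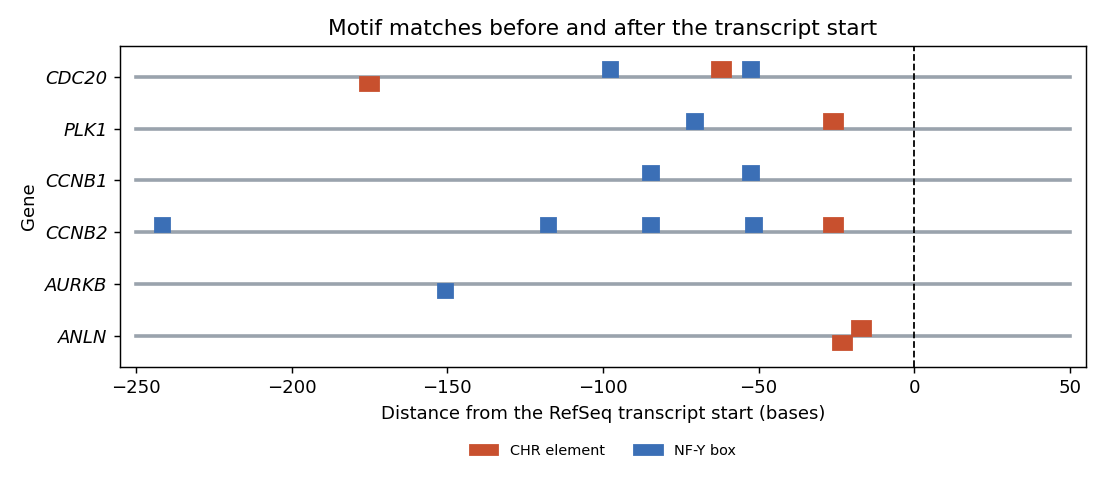
Motif matches in the promoters of 6 chosen genes, by distance in bases from the RefSeq transcript start, with CHR elements in orange and NF-Y boxes in blue, above the line on the strand of the gene and below it on the opposite strand. The matches of PLK1 and CCNB2 nearest to the start lie at the same distance, and AURKB, drawn for its first entry, has 1 match, upstream of 100 bases before the start.

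The rest of the mitotic machinery was described from 11 lists of genes, which hold 157 genes in all, with 104 in the table besides the chosen ones. Of the 99 tested, 84 were called lower and 5 higher, where 48.5% of all genes tested were called lower and 22.7% higher (71.2% in either direction). Of the 99, 28 had a doxorubicin mean under 1 TPM and passed the filter on the mean only through the control libraries, so that they had to differ, and all 28 were among those called lower. Of the other 71, with a doxorubicin mean of at least 1 TPM, 56 were called lower. After quantile normalization 74 were called lower and 5 higher, against 28.8% and 33.2% of all genes. The share of calls that were higher over all genes moved from 31.9% to 53.5% with that scaling. A limma call on this table is no second test of a gene, since the authors' thresholds were applied to the same libraries.

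Differences in the subunits of the APC/C itself were small and went in both directions. Of the 14 subunit genes, 7 are in the table, and 2 were called lower and 1 higher. The shares of all genes tested were 48.5% lower and 22.7% higher. CDC27 was at 28.24, 32.79 and 25.41 TPM in control cells and at 20.99, 20.08 and 18.90 TPM after doxorubicin (log2 difference -0.50, adjusted p = 0.00192 from limma), and CDC23 had a log2 difference of -0.54. Both encode subunits of the arm that receives the coactivators. ANAPC13 was at 81.13 to 88.83 TPM in control cells and at 99.14 to 107.68 TPM after doxorubicin, a log2 difference of 0.28, which no longer passed a fold of 1.2 after quantile normalization (0.24), without C1 (0.26) or without M1 (0.25). The list median was 0.08, or 0.36 above that of all genes.

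In the list of APC/C coactivators, other E2 enzymes and inhibitors, no coactivator was tested, and UBE2S was the only E2 tested. The 6 tested genes were all called lower, where 48.5% of all genes tested were, with a median log2 difference of -1.30. BUB1B, with a doxorubicin mean of 0.577 TPM, had passed the filter only through the control libraries. UBE2S, the E2 that extends the ubiquitin chains UBE2C begins, was at 52.61, 59.69 and 46.29 TPM in control cells and at 24.11, 24.52 and 29.05 TPM after doxorubicin. It kept 48.98% of its level, where UBE2C from a like control level kept 0.983% (UBE2S adjusted p = 3.57e-05 from limma). BUB1B and MAD2L1, parts of the checkpoint complex that holds CDC20 inactive, had log2 differences of -2.44 and -2.26, and FBXO5, the inhibitor EMI1, of -1.60.

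All 25 tested genes of other APC/C substrates were called lower, where 48.5% of all genes tested were, with a median log2 difference of -2.48. Many of them, RRM2 and NUSAP1 included, had a doxorubicin mean under 1 TPM. Those had passed the filter on the mean only through the control libraries, so that they had to differ. The largest difference was that of RRM2, a subunit of ribonucleotide reductase. It was at 27.92, 41.36 and 34.49 TPM in control cells and at 2.24, 0.25 and 0.30 TPM after doxorubicin. M1 was again the high library, as for AURKB. RRM2 kept 2.69% of its level with M1 and 0.795% without it. NUSAP1, a microtubule bundling protein, went from 14.9 ± 4.82 to 0.170 ± 0.0458 TPM and TK1, thymidine kinase, from 77.5 ± 5.38 to 5.57 ± 0.298 TPM (SD, n = 3 each).

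Among 17 tested regulators of mitotic entry, 16 were called lower and none higher, where 48.5% of all genes tested were called lower. LIN37, a MuvB subunit, was not called at a log2 difference of 0.16. After quantile normalization 14 were called lower (28.8% over all genes tested), without WEE1 and LIN52, and LIN37 was called higher at 0.31. CDK1, the kinase that cyclin B activates, was at 14.60, 16.15 and 12.99 TPM in control cells and at 0.15, 0.09 and 0.28 TPM after doxorubicin. It kept 1.19% of its control level, with a log2 difference of -3.73, and had passed the filter on the mean through the control libraries. MYBL2, which encodes B-MYB, went from 8.87 ± 0.336 to 0.0433 ± 0.0208 TPM, and PKMYT1, a kinase that inhibits CDK1, from 10.5 ± 0.613 to 0.353 ± 0.0902 TPM (SD, n = 3 each). MYBL2 and PKMYT1 had passed the filter in the same way as CDK1.

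In the spindle assembly checkpoint, 9 of 10 tested genes were called lower and MAD1L1 higher, where 48.5% of all genes tested were called lower. BUB1 and BUB1B, among others of this list, had passed the filter only through the control libraries. BUB1, a checkpoint kinase at kinetochores, went from 9.82 ± 0.506 to 0.317 ± 0.127 TPM, and TRIP13, an ATPase that takes the checkpoint complex apart, from 14.0 ± 0.910 to 1.91 ± 0.712 TPM (SD, n = 3 each). MAD1L1, which carries MAD2 to kinetochores, was at 21.65, 20.22 and 19.44 TPM in control cells and at 21.49, 30.20 and 25.62 TPM after doxorubicin. Its groups overlapped and its call was weak (log2 difference 0.31, adjusted p = 0.0361 from limma). With the replicate number as a block the adjusted p from limma was 0.0511 and after quantile normalization 0.00991, and the call was also lost without C2, without C3, without M2 or without M3.

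The partners of AURKB and BIRC5 were lower with them. All 5 tested genes of the list were called lower, where 48.5% of all genes tested were. Among them was CDCA8, the borealin of the passenger complex. It was at 9.24, 11.83 and 9.07 TPM in control cells and at 0.34, 0.28 and 0.45 TPM after doxorubicin. KIF20A, the kinesin that carries the complex to the midzone, went from 20.5 ± 2.08 to 0.177 ± 0.0513 TPM (SD, n = 3 each, log2 difference -4.19). With doxorubicin means under 1 TPM, KIF20A, CDCA8 and BUB1 of this list had passed the filter only through the control libraries. SGO1 and HASPIN were under the mean of 1 TPM and were not tested.

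Of the 13 tested genes that work with TPX2 and AURKA at the spindle, 12 were called lower, and 9 after quantile normalization, with none called higher. Over all genes tested the shares called lower were 48.5% and 28.8%. The list median was a log2 difference of -0.77, and KIF11 and HMMR had passed the filter only through the control libraries. TACC3, which Aurora A recruits to microtubules, went from 27.8 ± 2.03 to 2.90 ± 0.395 TPM, and the spindle motor KIF11 from 5.11 ± 0.490 to 0.437 ± 0.0351 TPM (SD, n = 3 each). HMMR, which helps to place TPX2, kept 3.24% of its level and 1.88% without M2. Of the 15 tested cytokinesis genes, 13 were called lower and none higher, where 48.5% of all genes tested were called lower. PRC1 and CEP55, among others of that list, had passed the filter only through the control libraries. PRC1, which bundles midzone microtubules, went from 31.7 ± 2.27 to 0.773 ± 0.0862 TPM, and CEP55, which brings the abscission machinery to the midbody, from 12.7 ± 0.896 to 0.283 ± 0.127 TPM (SD, n = 3 each).

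**Figure D5:**
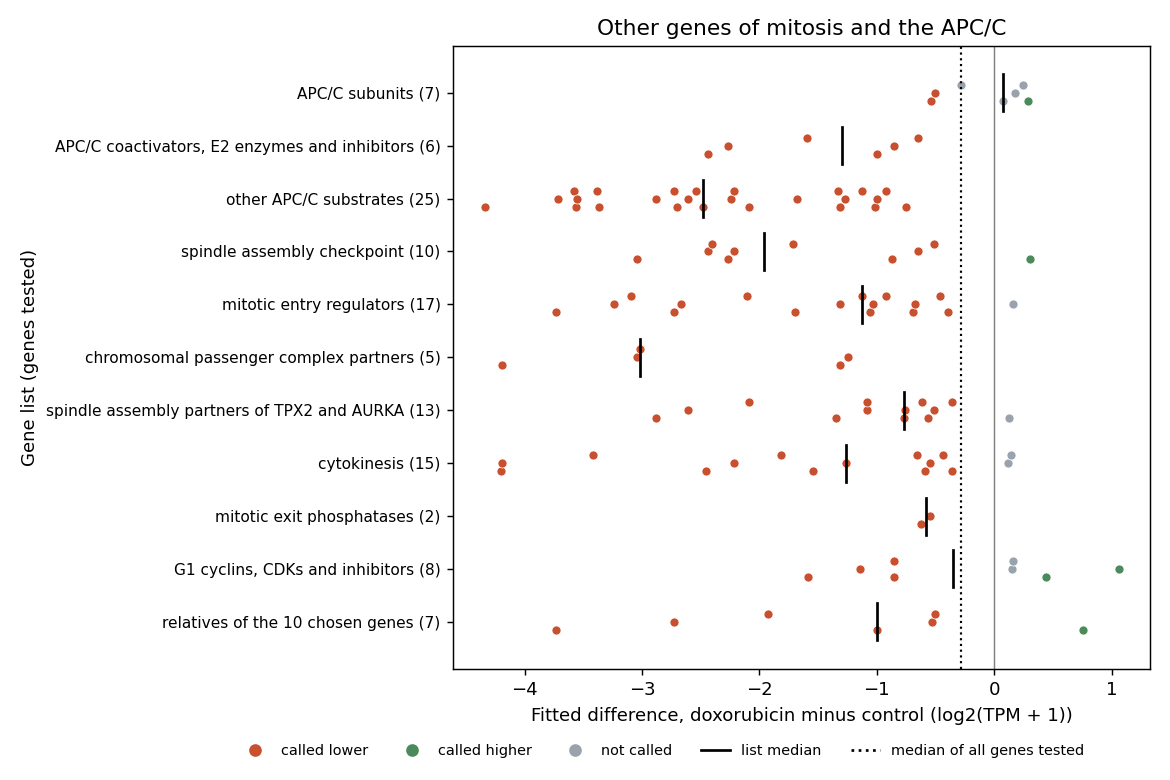
Fitted difference between doxorubicin and control on the log2(TPM + 1) scale for each tested gene of the 11 lists, with the number tested in brackets, genes called lower in orange, called higher in green and not called in grey, a black bar at the list median and a dotted line at the median of all genes. The substrates of the APC/C have a median of -2.48 and its own subunits one of 0.08.

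Of 13 relatives of the chosen genes, 7 are in the table, and 6 of them were called lower and 1, PLK3, higher. Over all genes tested, 48.5% were called lower and 22.7% higher. CDK1 and PLK4 of this list, with doxorubicin means under 1 TPM, had passed the filter only through the control libraries. PLK3, a polo-like kinase of the stress response, was at 27.30, 23.84 and 25.59 TPM in control cells and at 43.26, 44.23 and 43.97 TPM after doxorubicin, so that it rose while PLK1 was 27.9-fold lower (log2 difference 0.76, adjusted p = 3.02e-05 from limma). PLK4, the kinase of centriole duplication, kept 10.6% of its level with all libraries and 6.46% without M2. CCNA2, the cyclin of S phase and early mitosis, kept 8.76%, close to CCNB1. BIRC6 and BIRC3, of the same family of inhibitor of apoptosis proteins as survivin, had log2 differences of -0.51 and -0.53, against -4.05 for BIRC5. After quantile normalization BIRC3 was at -0.26 and was no longer called.

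In the list of G1 cyclins, CDKs and their inhibitors, 4 of 8 tested genes were called lower and 2 higher, shares near those over all genes tested (48.5% and 22.7%). CDKN1A, the inhibitor p21, had a log2 difference of 1.06 and CCND2 of 0.44, while CDKN2C, the inhibitor p18, had one of -1.59. CCNE2, cyclin E2, was at 1.56, 2.59 and 1.30 TPM in control cells and at 0.68, 0 and 0.17 TPM after doxorubicin (M2 is listed at 0). It kept 15.6% of the control level with M1 and 4.68% without M1. With a doxorubicin mean of 0.283 TPM, CCNE2 had passed the filter only through the control libraries. After quantile normalization, without C1 or without C2 it fell under the filter and was not tested. Of the 17 genes of phosphatases that act at mitotic exit only CDC14B and PPP1CC are in the table, both called lower with log2 differences of -0.62 and -0.54, and after quantile normalization only PPP1CC was.

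The genes whose profile over the 6 libraries lay nearest to the median profile of the chosen genes were PBK, CDK1, APOBEC3B, CDCA3, TROAP, TK1, KIF2C, KIFC1, CDKN3 and DLGAP5. Likeness was the Euclidean distance of log2(TPM + 1), centred per gene. It was 0.25 for PBK, a mitotic kinase, and 0.53 for DLGAP5, against a median of 4.28 over 5711 genes. PBK went from 13.2 ± 0.552 to 0.153 ± 0.0839 TPM (SD, n = 3 each). APOBEC3B, a cytidine deaminase, went from 15.8 ± 0.520 to 0.393 ± 0.00577 TPM (SD, n = 3 each). Of the chosen genes PLK1 was nearest to their median, at 0.09, and AURKA farthest, at 3.75. TROAP kept 0.436% of its level with M1 and 0.229% without it.

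Of 10 fibroblast markers, 5 are in the table, with COL1A1 at 2780 to 2913 TPM in the control libraries and at 1734 to 2201 TPM after doxorubicin. COL1A1, COL1A2, COL3A1 and PDGFRB were called lower and FN1 was called higher. Of all genes tested, 48.5% were called lower and 22.7% were called higher. COL3A1 went from a mean of 267 to 95.4 TPM and FN1 from 4524 to 6220 TPM. The summed level of the 5 genes, which go opposite ways, was 10287 to 10609 TPM in control and 9409 to 11485 TPM in doxorubicin libraries. Of 6 epithelial markers, KRT8, KRT18 and KRT19 are in the table, with a summed level of 135 to 150 TPM in control and 283 to 307 TPM in doxorubicin libraries, and KRT18 and KRT19 were called higher. Of 5 immune markers, CD68 and PTPRC are in the table, with a summed level of 45 to 49 TPM in control and 87.4 to 93.7 TPM in doxorubicin libraries. CD68, which fibroblasts also express in lysosomes, made up nearly all of that sum, and the defining marker PTPRC was at 0.01 to 0.12 TPM in control cells and at 0.10 to 0.62 TPM after doxorubicin. None of 4 endothelial markers has a row. A marker without a row can be one that failed the authors' thresholds, and its level is not known here. No marker with a row was at 0 in all libraries. The part of these shifts in the lower levels of the mitotic genes was not tested.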

How the data were processed

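RNA-seq of WI-38 cells had been run in 3 groups of 3 libraries, of which the 6 control and doxorubicin libraries were analysed. Per the labels, CASAVA, HISAT2, StringTie, RSEM, DESeq2 and edgeR were used, with no role given, and GRCm38, a mouse build, is named although all 6499 row identifiers are human Ensembl genes. The counting settings are not given in the sources used here. The deposited table holds a value per gene and library, read as TPM of the authors' making since RSEM writes that unit and no library's sum exceeds the total TPM allows. The authors also deposited group means, likewise read as TPM, a fold change as a ratio and as log2, and a p-value and adjusted p-value per gene. These comparisons were used only to check that all 6499 rows pass the thresholds of the study (fold 1.2, p 0.05).

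Values were fitted with limma 3.58.1 in R 4.3.3 (eBayes with trend and robust) on log2(TPM + 1) for genes whose mean reached 1 TPM, with a mean per group, and the fit was tested on simulated data. Pseudocount, filters, quantile normalization (over the listed genes only), the replicate number as a block, thresholds and single libraries were varied. TPM keeps no depth, so precision rests on the spread of 3 libraries, and an exact permutation test of 3 against 3 cannot give a p below 0.1. The chosen genes and the lists were set with earlier results of these data known. Named are the chosen genes, up to 3 called genes with the largest difference per list, genes called against the majority of their list, all relatives with a row and the 10 nearest profiles. LIN37, WEE1, LIN52, SGO1 and HASPIN were named after their values were seen. Gene positions on GRCh38 came from GENCODE release 29, through the identifier, for 6462 of the 6499 genes. Promoters are those of RefSeq on GRCh38.p14. Python 3.11.15 with pandas 2.3.3 and NumPy 2.4.6 was used.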

Additional observations from a re-analysis of the deposited data

How the results depend on the processing

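All 10 chosen genes kept their direction under every setting tried for them. Their median log2 difference of -3.76 was -4.60 with a pseudocount of 0.1, -4.51 as the ratio of group means and -3.59 after quantile normalization, and lay between -3.80 and -3.67 with each library left out in turn. The shifts with a smaller or no pseudocount follow from the pseudocount, which holds down genes under 1 TPM. Of the 84 other genes of mitosis and the APC/C called lower, 53 were left with a mean of at least 5 TPM (fewer genes tested) and also 53 with a fold over 2, at which 1 of the 5 higher calls was left. With each library left out in turn the counts were 79 to 85 lower and 4 to 5 higher. Over the whole table those counts were 2503 to 2820 lower and 1185 to 1275 higher. A mean of at least 5 TPM gave 1870 lower and 1030 higher over the whole table. Over the whole table, quantile normalization gave 1653 genes called lower in place of 2775, and a fold over 2 gave 359 lower and 104 higher in place of 1301 higher. After quantile normalization the count called lower among mitotic exit phosphatases was 1 in place of 2, the count called higher among APC/C subunits was 0 in place of 1, and that among regulators of mitotic entry was 1 in place of 0. The cause of these shifts was not tested.

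Control and doxorubicin libraries share replicate numbers, but libraries with the same number did not deviate together (correlations of the deviations from the group means of -0.06, -0.19 and -0.23 over the genes tested), so the numbers were not taken as pairs. With the replicate block 2670 genes were called lower and 1222 higher over the whole table, and 82 lower and 4 higher in the lists. The 1 higher call in the spindle assembly checkpoint, MAD1L1, became 0.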

Other observations

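The libraries of a group kept a partly common order over the chosen genes. C2 was the highest control library in 9 of the 10 genes, all but UBE2C, where over the 5721 genes tested it was the highest in 2610. Among the doxorubicin libraries M1 was the highest in 5 of the 10 genes and M3 the lowest in 5, where over all genes tested M1 was the highest in 1143 and M3 the lowest in 1261. The genes share libraries and scaling, so these counts are a description. The coefficient of variation ran from 2.78 to 12.3% over the chosen genes in control cells and from 4.67% (AURKA) to 106% (AURKB) after doxorubicin, where most levels were under 2 TPM.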
